A study of Mus musculus with 8 samples.

Results

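The genes Pidd1, Cradd, Casp2, Cycs, Apaf1, Casp9, Diablo and Casp8 build the complexes that start a caspase cascade, and they were chosen by name from the expression table of 32D cells. All 8 were found among the 56748 genes listed. The 7 other than Cradd passed the filter on low values, which asked for 2 or more libraries with an FPKM (fragments per kilobase of gene, scaled to library size) of 1 or more and left 11818 genes for testing. 32D is a mouse bone marrow line that needs interleukin-3 (IL-3) to grow, and its cells carried introduced murine Jak2WT or Jak2V617F, the JAK2 mutant of myeloproliferative neoplasms. In the GLUT1/3 dKO cells Slc2a1 and Slc2a3, the genes of the glucose transporters GLUT1 and GLUT3, had been disrupted by CRISPR-Cas9, and the GLUT1/3 WT cells kept them. The 4 groups were therefore Jak2WT GLUT1/3 WT, Jak2WT GLUT1/3 dKO, Jak2V617F GLUT1/3 WT and Jak2V617F GLUT1/3 dKO, each with clones 1 and 3 sequenced as 1 poly A library per clone. All cells had spent 24 h in low-supplement medium that held 2 ng/ml IL-3, 10% fetal calf serum, 5 mM glucose and L-glutamine at 1 mM. A library is thus 1 clone of 1 line, and the spread given below is that between the 2 clones of a group.

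Caspases are made as inactive precursors, and initiator caspases are switched on when an adaptor complex brings several copies together. The PIDDosome, made of the proteins of Pidd1 and Cradd, activates caspase-2 after extra centrosomes or DNA damage. In the apoptosome, cytochrome c released from mitochondria binds Apaf1, which recruits and activates caspase-9, while Diablo frees caspases from their inhibitors. Caspase-8 is the initiator downstream of death receptors such as Fas. Activation of all these proteins happens after translation, and an mRNA level does not measure it.

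The libraries held 16846011 to 48884329 reads on genes. Slc2a1 was lower in the dKO clones, with log2 fold changes of -2.2 (adjusted p = 0.000872) in Jak2WT and -1.9 (adjusted p = 0.000444) in Jak2V617F cells. Slc2a3 had log2 fold changes of -1.71 (adjusted p = 0.0612) and -2.39 (adjusted p = 0.0115), so in Jak2WT cells its mRNA did not pass the test. Of the markers behind the label of a myeloblast-like line, Mpo, Elane, Ctsg, Kit, Cd34 and Cebpa were at or near 0 in all libraries, whereas Prtn3, Csf2rb, Il3ra, Ptprc, Spi1 and Cebpe were detected. Summed globin and other erythroid marker levels were 94.0 to 112 FPKM in Jak2WT GLUT1/3 WT, 248 to 292 in Jak2WT dKO, 554 to 913 in Jak2V617F GLUT1/3 WT and 2609 to 4789 FPKM in Jak2V617F dKO clones. That sum was mostly globin mRNA in the dKO and Jak2V617F clones. With the dKO in Jak2V617F cells, limma called 6 of the 8 tested erythroid markers higher and 1 lower. The lower one was Gata1, the erythroid transcription factor gene (log2 fold change -0.50, adjusted p = 0.0246). Klf1 went from 16.0 and 10.8 FPKM in the Jak2V617F GLUT1/3 WT clones to 23.6 and 18.3 FPKM in the Jak2V617F dKO clones. Of that list Alas2 and Slc4a1 were near 0 throughout, whereas Gata1 (24.9 to 58.1 FPKM), Klf1 (10.8 to 23.6) and Epor (3.31 to 7.77) were detected in every library. Summed myeloid markers were 93.3 to 98.8 FPKM in the Jak2V617F dKO clones against 188 to 292 elsewhere. Csf2rb was the largest part of that sum in every library, whereas Il3ra stayed at 6.61 to 9.38 FPKM over all libraries. Of the 6 tested, limma called 4 lower and 0 higher with the dKO in Jak2V617F cells. Summed macrophage markers were 21.9 to 26.4 FPKM in the Jak2V617F dKO clones against 52.2 to 72.9 elsewhere. The macrophage sum was made mostly of Adgre1, which fell with the dKO in Jak2V617F cells (-1.54), while Cd68 was at 0.29 (adjusted p = 0.305). Summed megakaryocyte markers were 63.4 to 63.8 and 85.3 to 90.4 FPKM in Jak2WT GLUT1/3 WT and dKO clones, and 191 to 205 and 227 to 279 FPKM in those of Jak2V617F. These lists moved with the comparisons below, and their part in the results was not tested. In such bulk libraries, fewer cells of a type and less RNA per cell cannot be told apart.

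Pidd1, Casp2 and Cycs are the genes whose levels passed the test for the dKO in Jak2V617F cells, and their promoters are therefore shown, from 250 bases before to 50 after the RefSeq start on build GRCm38.p6. The windows are chr7:141443976-141444275 on the minus strand for Pidd1, chr6:42264735-42265034 on the plus strand for Casp2 and chr6:50566520-50566819 on the minus strand for Cycs. Capitals mark matches to the motifs searched on both strands, and positions count from 1 at the start, with negative ones before it.
Pidd1: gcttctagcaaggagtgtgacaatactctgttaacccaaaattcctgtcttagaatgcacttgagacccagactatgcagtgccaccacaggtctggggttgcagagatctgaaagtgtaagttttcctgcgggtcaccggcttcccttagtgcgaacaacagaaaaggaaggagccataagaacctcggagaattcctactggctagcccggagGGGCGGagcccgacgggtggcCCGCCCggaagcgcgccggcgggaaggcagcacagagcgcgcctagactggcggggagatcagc
Casp2: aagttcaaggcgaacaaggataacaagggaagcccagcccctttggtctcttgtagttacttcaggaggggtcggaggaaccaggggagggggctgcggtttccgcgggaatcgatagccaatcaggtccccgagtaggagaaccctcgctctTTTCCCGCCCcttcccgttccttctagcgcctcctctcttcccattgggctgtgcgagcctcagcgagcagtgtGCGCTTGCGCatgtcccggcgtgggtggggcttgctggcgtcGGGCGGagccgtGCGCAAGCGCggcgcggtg
Cycs: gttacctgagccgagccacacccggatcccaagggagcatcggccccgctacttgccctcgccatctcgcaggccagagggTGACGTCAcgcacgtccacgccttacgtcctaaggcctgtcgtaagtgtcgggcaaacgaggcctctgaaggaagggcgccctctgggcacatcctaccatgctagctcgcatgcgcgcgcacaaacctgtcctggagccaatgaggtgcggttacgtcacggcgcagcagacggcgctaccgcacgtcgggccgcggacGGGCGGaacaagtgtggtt
The motifs were the E2F sites TTTCCCGC and TTTGGCGC, the NRF1 site (GCGCA and GCGC with 1 base between), the cyclic AMP response element TGACGTCA, the GC box GGGCGG and the full p53 response element. Pidd1 held GC boxes at -35 to -30 and, on the other strand, at -14 to -9. Casp2 held an E2F site at -97 to -90 that overlapped a GC box of the other strand, NRF1 sites at -23 to -14 and at 32 to 41, and a GC box at 20 to 25. Cycs held the palindromic cyclic AMP response element at -169 to -162 and a GC box at 32 to 37. Of 32851 RefSeq promoters of the same length, 1.07% held TTTCCCGC, 0.514% TTTGGCGC, 4.6% the NRF1 site, 1.79% the cyclic AMP response element and 35.7% a GC box. All 8 genes had a promoter in the RefSeq table, and none held the p53 element, which 0.0731% of promoters did. A missing match says only that these letters are not in this window.

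The genes differed in level by over an order of magnitude on the FPKM scale, which is per length. Averaged over the 8 libraries, Cycs stood at 30.2 FPKM, Casp8 at 28.3, Apaf1 at 17.6 and Casp2 at 15.5, above 85.1%, 84.1%, 74.5% and 71.1% of the genes tested. Pidd1 followed with 5.40 FPKM, above 40.2%, then Casp9 with 2.95, above 25.2%, Diablo with 1.11 and Cradd with 0.60 FPKM. The ranges of neighbours in this order overlapped across libraries, except those of Casp2 and Pidd1 and of Casp9 and Diablo. Pidd1 varied most, with a highest library 4.01 times the lowest, followed by Cycs (2.15), Apaf1 (2.00), Diablo (1.91), Cradd (1.60), Casp9 (1.52), Casp8 (1.38) and Casp2 (1.33).

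**Figure D1:**
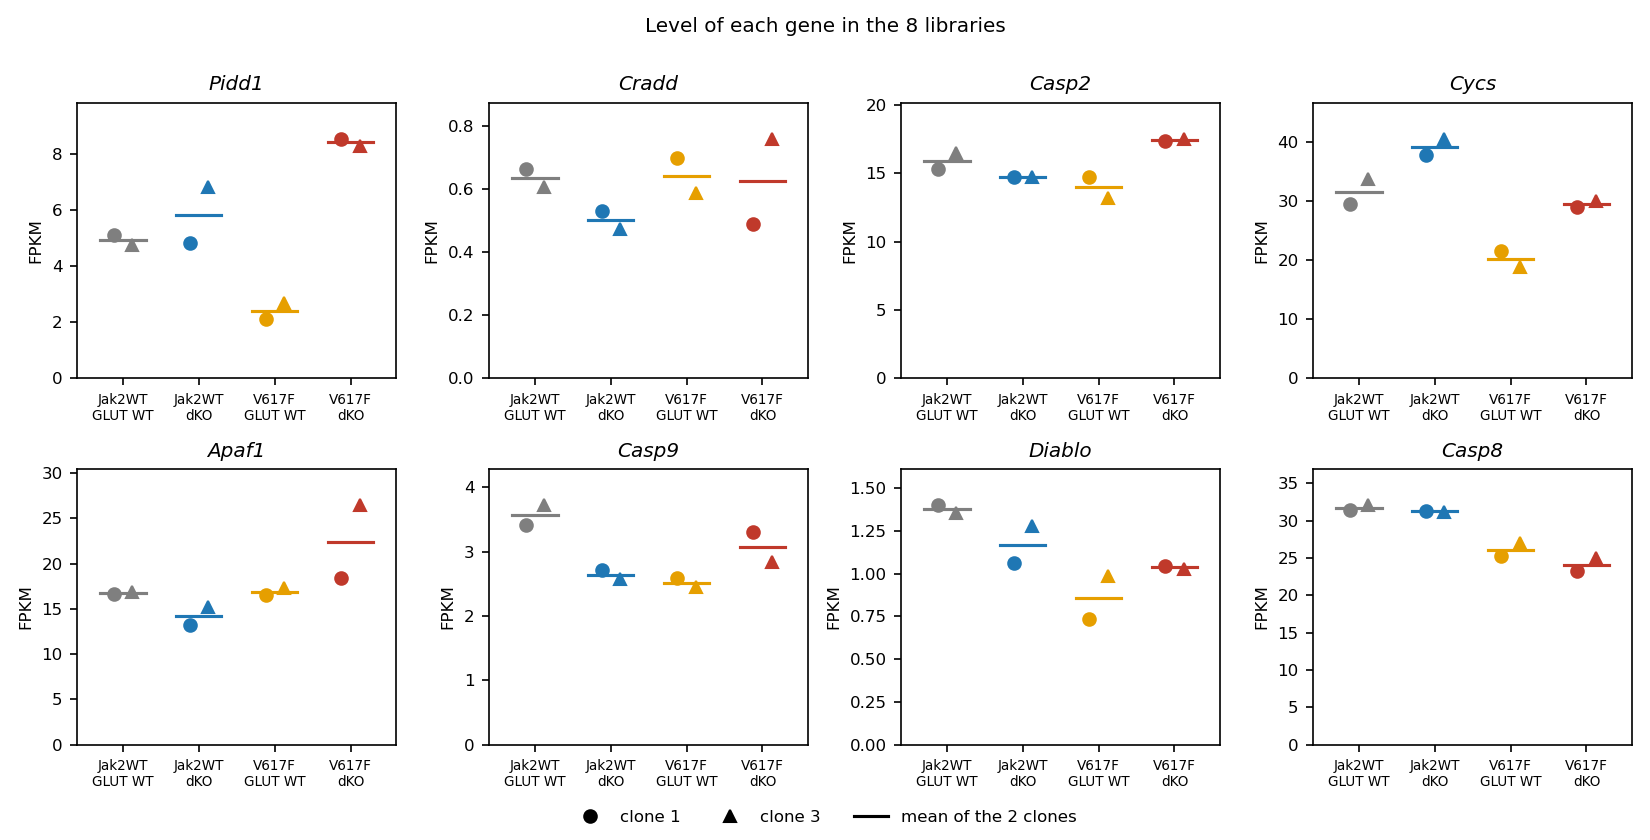
Level in FPKM (linear axes from 0) of each gene in the 8 libraries, with circles for clone 1, triangles for clone 3 and a line at the mean of the 2 clones. Pidd1 was lowest in the Jak2V617F GLUT1/3 WT clones, at 2.13 and 2.70, and highest in the Jak2V617F dKO clones, at 8.55 and 8.29 FPKM.

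Pidd1 encodes the platform protein of the PIDDosome. In the mm39 coordinates of the table it lies at chr7:141018026-141023938 on the minus strand. Its level was 5.10 and 4.76 FPKM in clones 1 and 3 of Jak2WT GLUT1/3 WT and 4.82 and 6.83 FPKM in those of Jak2WT dKO. In Jak2V617F cells it was 2.13 and 2.70 FPKM with GLUT1/3 WT and 8.55 and 8.29 FPKM with the dKO. The Jak2V617F dKO clones stood above, and the Jak2V617F GLUT1/3 WT clones below, all other libraries, while the Jak2WT groups overlapped. These values rest on 207 to 1525 reads per library, a counting error of 2.56% to 6.95%.

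Within Jak2V617F cells Pidd1 rose with the dKO, from a mean of 2.42 ± 0.398 to 8.42 ± 0.183 FPKM (SD, n = 2 each), a ratio of 3.49. On the scale used for all tests, log2(FPKM + 1), which understates the change of low genes, the fold change was 1.47 (SE 0.15, 95% interval 1.12 to 1.82, adjusted p = 0.000895). In Jak2WT cells the same contrast gave 0.19 (interval -0.16 to 0.54, adjusted p = 0.437), and without clone 3 of the Jak2WT dKO it was -0.03. The difference between these contrasts, the interaction of background and dKO, was 1.28 (SE 0.21, adjusted p = 0.0176) and passed the test. That last call was lost without Jak2WT GLUT1/3 WT clone 1 (adjusted p = 0.0693) or clone 3 (0.0733), Jak2WT dKO clone 1 (0.0559) or Jak2V617F GLUT1/3 WT clone 1 (0.0550), whereas the rise within Jak2V617F cells still passed with any 1 library left out, at adjusted p-values up to 0.00727.

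Between the backgrounds, Pidd1 was lower in Jak2V617F than in Jak2WT cells with intact transporters (log2 fold change -0.80, SE 0.15, adjusted p = 0.00785, limma). Among the dKO clones its fold change was 0.48 (interval 0.13 to 0.83, adjusted p = 0.0692), which did not pass, although both Jak2V617F dKO clones were above both Jak2WT dKO clones. Without Jak2WT GLUT1/3 WT clone 1 the former call was lost, with an adjusted p of 0.0508. Without Jak2WT dKO clone 3 the latter passed, at 0.70 and an adjusted p of 0.0363. The study placed Pidd1, Casp8 and Cycs in its apoptosis panel and picked Pidd1 for RT-qPCR from these same libraries, so their values here are not independent evidence. The paper reports that its RT-qPCR, a separate measurement, found Pidd1 raised by the dKO in Jak2V617F clones.

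The RT-qPCR primers show which stretch of Pidd1 that assay reads, and both matched a Pidd1 transcript of 16 exons once.
Pidd1 forward primer: tccttgttctgcacagcaacct
Pidd1 reverse primer: aacctgggatatgtctggggga
The forward primer lies in exon 4 at chr7:141021692-141021713 (GRCm39, minus strand), and the reverse primer spans the junction of exons 4 and 5. The amplicon is 203 bases of the transcript and 285 bases of the genome, so it covers a small stretch of the 4528 bases over which the table counted reads for Pidd1.

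Cradd encodes RAIDD, the adaptor that links PIDD1 to caspase-2. It was the least abundant of the genes, at 0.663 and 0.606 FPKM in Jak2WT GLUT1/3 WT, 0.530 and 0.473 in Jak2WT dKO, 0.697 and 0.585 in Jak2V617F GLUT1/3 WT, and 0.490 and 0.758 FPKM in Jak2V617F dKO clones. The Jak2V617F dKO clones spanned almost the whole range, and no library reached 1 FPKM. With 50 to 125 reads per library, a counting error of 8.94% to 14.1%, Cradd was not tested. In the GENCODE vM39 annotation, which may not be the one used for the table, 11.6% of its exonic bases are shared with Gm48882 on the other strand, and the strand setting of the counting is not given in the sources used here.

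Casp2 encodes caspase-2, the effector of the PIDDosome, and lies at chr6:42241919-42259442 on the plus strand. Its level was 15.3 and 16.5 FPKM in Jak2WT GLUT1/3 WT and 14.7 and 14.8 FPKM in Jak2WT dKO clones. It was 14.7 and 13.2 FPKM in Jak2V617F GLUT1/3 WT and 17.4 and 17.5 FPKM in Jak2V617F dKO clones. The Jak2V617F dKO clones had the highest levels of all 8 libraries. Casp2 rose with the dKO in Jak2V617F cells, by 0.30 (SE 0.082, interval 0.11 to 0.50, adjusted p = 0.0289), a ratio of means of 1.25. In Jak2WT cells the fold change was -0.10 (interval -0.30 to 0.09, adjusted p = 0.426), and the interaction was 0.41 (adjusted p = 0.0642), short of the threshold, which it passed with libraries scaled by median ratio (adjusted p = 0.0373). It also passed with the same summed FPKM (0.0133) and by voom (0.00802), where the interaction of all genes moved up as well, from a median of -0.04 to 0.12 and 0.11. The rise in Jak2V617F cells passed without Jak2V617F GLUT1/3 WT clone 1 but was lost with any other library left out, at adjusted p-values of 0.0529 to 0.116, and with only the groups compared (0.111).

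**Figure D2:**
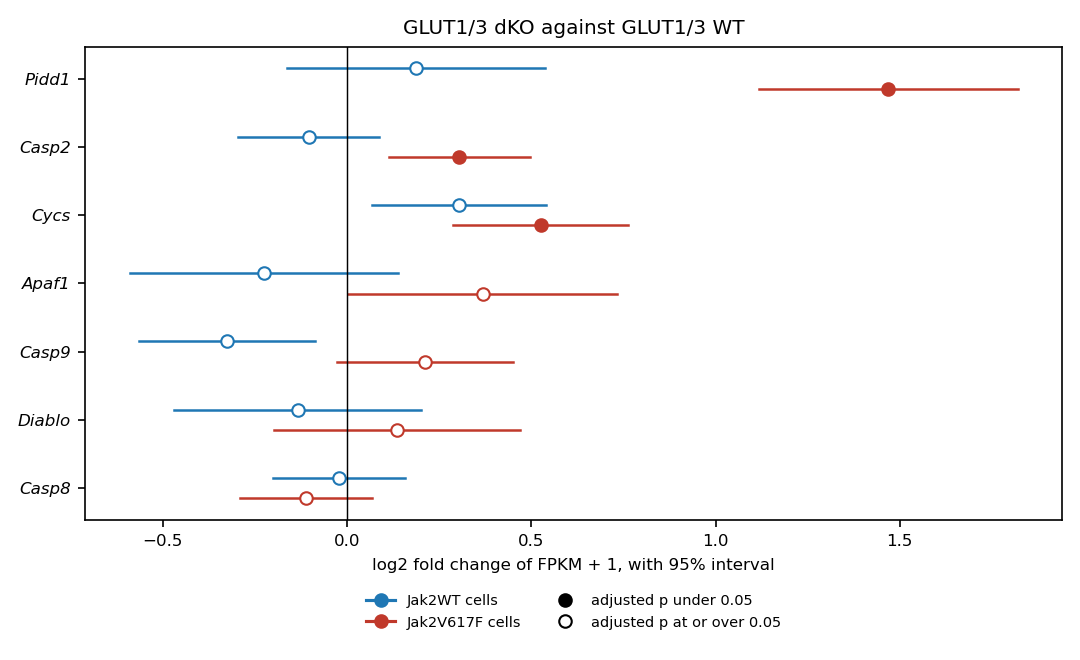
Log2 fold change of FPKM + 1 in GLUT1/3 dKO against GLUT1/3 WT clones for the 7 tested genes, in Jak2WT (blue) and Jak2V617F cells (red), with 95% intervals from the fit across all genes and filled points for an adjusted p under 0.05. Pidd1 in Jak2V617F cells stands farthest from 0, at 1.47, and the filled points are Pidd1, Casp2 and Cycs in Jak2V617F cells.

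Across the 7 tested genes, the dKO in Jak2V617F cells was called higher for 3 (Pidd1, Casp2 and Cycs) and lower for 0, at an adjusted p under 0.05. Of all genes tested, 13.7% were called higher and 16.2% lower in that comparison. At an unadjusted p under 0.05 the counts were 4 higher and 0 lower, against 19.5% and 23.1% of all genes. Limma-voom on recovered reads called 5 higher and 0 lower, against 19.9% and 13.6% of all genes, with an all-gene median moved from -0.02 to 0.07. The median fold change was 0.30 against -0.02 over all genes. In Jak2WT cells the dKO was called higher for 0 and lower for 0 of the 7, where 7.62% of all genes were called higher and 6.06% lower. At an unadjusted p under 0.05 limma gave 1 higher (Cycs) and 1 lower (Casp9) there, against 16.8% and 14.8% of all genes. Voom on recovered reads called 0 higher and 1 lower, against 8.61% and 13.5%. Each background has its own control clones, but both comparisons share 1 estimate of the spread over the 8 libraries.

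Cycs encodes cytochrome c, which carries electrons in the respiratory chain and starts apoptosome assembly once in the cytosol. It was 29.5 and 33.8 FPKM in Jak2WT GLUT1/3 WT and 37.9 and 40.6 FPKM in Jak2WT dKO clones. In Jak2V617F cells it was 21.7 and 18.9 FPKM with GLUT1/3 WT and 29.0 and 30.1 FPKM with the dKO. In each background the dKO clones lay above the GLUT1/3 WT clones without overlap, and the Jak2V617F GLUT1/3 WT clones were the lowest libraries. Cycs has processed copies elsewhere in the genome, and how reads shared with them were counted is not given in the sources used here.

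Cycs rose with the dKO in Jak2V617F cells, by 0.52 (SE 0.10, interval 0.29 to 0.76, adjusted p = 0.00901), a ratio of means of 1.46. In Jak2WT cells its fold change was 0.30 (interval 0.07 to 0.54, adjusted p = 0.0880), a ratio of 1.24 that did not pass. The difference between the backgrounds was not detectable, with an interaction of 0.22 (interval -0.11 to 0.56, adjusted p = 0.336). Jak2V617F cells had less Cycs than Jak2WT cells with intact transporters (log2 fold change -0.62, adjusted p = 0.00481), and also among dKO clones (log2 fold change -0.40, adjusted p = 0.0372). The last of these calls held without either Jak2V617F GLUT1/3 WT clone and was lost with any 1 of the other 6 libraries left out, at adjusted p-values of 0.0524 to 0.168.

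Apaf1 encodes the scaffold of the apoptosome and lies at chr10:90825173-90918632 on the minus strand. It was 16.6 and 16.9 FPKM in Jak2WT GLUT1/3 WT, 13.3 and 15.2 in Jak2WT dKO, 16.5 and 17.3 in Jak2V617F GLUT1/3 WT, and 18.4 and 26.5 FPKM in Jak2V617F dKO clones. Jak2V617F dKO clone 3 stood above all other libraries, and the clones of that group, at 22.5 ± 5.69 FPKM (SD, n = 2), differed from each other more than those of any other group. Among dKO clones Apaf1 was higher in Jak2V617F than in Jak2WT cells, by 0.61 (SE 0.16, adjusted p = 0.0378). Without Jak2V617F dKO clone 3 the value was 0.36 (adjusted p = 0.0671), without clone 1 it was 0.86 (adjusted p = 0.00766), and with any 1 of the other 6 libraries left out the call was lost, at adjusted p-values of 0.0559 to 0.194.

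The dKO contrasts of Apaf1 were not called. In Jak2V617F cells the fold change was 0.37 (interval 0.003 to 0.73, adjusted p = 0.115), and it was 0.62 (adjusted p = 0.0109) without clone 1 and 0.12 (adjusted p = 0.446) without clone 3 of the Jak2V617F dKO. In Jak2WT cells it was -0.23 (interval -0.59 to 0.14, adjusted p = 0.365), and the interaction was 0.59 (interval 0.08 to 1.11, adjusted p = 0.123). By voom on recovered reads the Jak2V617F contrast (0.48, adjusted p = 0.0425) and the interaction (0.77, adjusted p = 0.0437) passed, where the all-gene median of the interaction moved from -0.04 to 0.11, and without Jak2V617F dKO clone 1 the interaction was 0.84 (adjusted p = 0.0259). With intact transporters the backgrounds gave 0.01 (interval -0.35 to 0.38, adjusted p = 0.961), and -0.13 with libraries scaled to the same summed FPKM, a scaling that moved the median of all genes from 0.01 to -0.12.

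Casp9 encodes caspase-9, the initiator that the apoptosome activates. It was 3.41 and 3.73 FPKM in Jak2WT GLUT1/3 WT and 2.71 and 2.58 FPKM in Jak2WT dKO clones. In Jak2V617F cells it was 2.59 and 2.45 FPKM with GLUT1/3 WT and 3.31 and 2.85 FPKM with the dKO. The dKO clones lay below the controls in Jak2WT and above them in Jak2V617F cells, without overlap in either. Neither contrast passed, at -0.32 (adjusted p = 0.0751) and 0.21 (adjusted p = 0.156), nor did the interaction of 0.54 (interval 0.20 to 0.87, adjusted p = 0.0570). By voom on recovered reads all 3 passed, at -0.49 (adjusted p = 0.0216), 0.39 (0.0470) and 0.88 (0.0131), and with libraries scaled to the same summed FPKM the Jak2WT contrast (0.0344) and the interaction (0.0254) did. Both of these settings also moved the interaction of all genes up, to medians of 0.11 and 0.12. The interaction also passed with median ratio scaling (0.0468) and without Jak2V617F dKO clone 3 (0.0459). With intact transporters Casp9 was lower in Jak2V617F than in Jak2WT cells (log2 fold change -0.38, adjusted p = 0.0293). That call held without either Jak2V617F dKO clone and was lost with any 1 of the other 6 libraries left out, at adjusted p-values of 0.0507 to 0.166. In vM39 5.73% of its exonic bases are shared with genes of the other strand.

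Diablo encodes a mitochondrial protein that binds inhibitors of apoptosis. Its level was 1.40 and 1.36 FPKM in Jak2WT GLUT1/3 WT, 1.06 and 1.28 in Jak2WT dKO, 0.735 and 0.985 in Jak2V617F GLUT1/3 WT, and 1.05 and 1.03 FPKM in Jak2V617F dKO clones. The Jak2WT GLUT1/3 WT clones were the highest and the Jak2V617F GLUT1/3 WT clones the lowest. No comparison passed the test, and the farthest from 0 was that between backgrounds with intact transporters, at -0.36 (interval -0.69 to -0.02, adjusted p = 0.0975). That comparison passed by voom on recovered reads (-0.79, adjusted p = 0.0198) and without the trend (adjusted p = 0.0352). In vM39 56.0% of its exonic bases are shared with other genes of its strand, a readthrough model among them, so its level is uncertain.

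Casp8, the death receptor initiator, lies at chr1:58834533-58886662 on the plus strand. It was 31.4 and 32.1 FPKM in Jak2WT GLUT1/3 WT and 31.2 and 31.2 FPKM in Jak2WT dKO clones. In Jak2V617F cells it was 25.3 and 26.9 FPKM with GLUT1/3 WT and 23.2 and 25.0 FPKM with the dKO. All Jak2V617F libraries were below all Jak2WT libraries, whether or not the transporters were intact. Casp8 was lower in Jak2V617F cells (log2 fold change -0.27, adjusted p = 0.0330) with intact transporters and (log2 fold change -0.36, adjusted p = 0.0197) among dKO clones. The former call held without either Jak2V617F dKO clone and was lost with any 1 of the other 6 libraries left out (adjusted p of 0.0519 to 0.163). The latter was lost without Jak2WT dKO clone 1 (0.106) or clone 3 (0.0934) or Jak2V617F dKO clone 1 (0.0770).

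The dKO itself left Casp8 with fold changes of -0.02 (interval -0.20 to 0.16, adjusted p = 0.875) in Jak2WT and -0.11 (interval -0.29 to 0.07, adjusted p = 0.310) in Jak2V617F cells. The intervals leave room for a fall of up to 0.29 on the log2 scale. The interaction was -0.09 (adjusted p = 0.627), and 0.10 with libraries scaled to the same summed FPKM, which moved the median of all genes from -0.04 to 0.12.

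**Figure D3:**
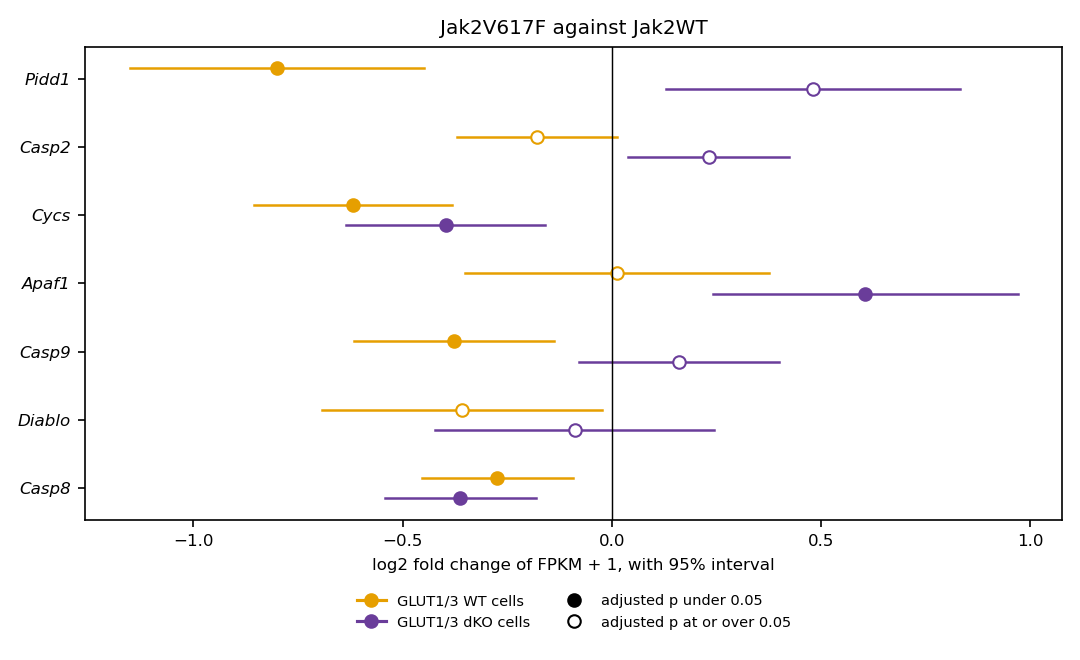
Log2 fold change of FPKM + 1 in Jak2V617F against Jak2WT clones for the 7 tested genes, among GLUT1/3 WT (orange) and dKO clones (purple), with 95% intervals and filled points for an adjusted p under 0.05. Among GLUT1/3 WT clones Pidd1, Cycs, Casp9 and Casp8 were lower, and among dKO clones Cycs and Casp8 were lower and Apaf1 higher.

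Between backgrounds with intact transporters, 4 of the 7 tested genes were called lower (Pidd1, Cycs, Casp9 and Casp8) and 0 higher, where 14.9% of all genes were called lower and 15.3% higher. At an unadjusted p under 0.05 limma gave 5 lower and 0 higher, against 20.9% and 21.8% of all genes, and no alternative called 1 higher. The clones of 6 genes were lower in Jak2V617F cells without overlap, as were those of 33.6% of all genes tested, and the median fold change was -0.36 against 0.01 over all genes. The count of 4 fell to 1 without Jak2WT GLUT1/3 WT clone 1, and to 2 without Jak2WT GLUT1/3 WT clone 3, either Jak2WT dKO clone or either Jak2V617F GLUT1/3 WT clone. Among the dKO clones 1 gene was called higher (Apaf1) and 2 lower (Cycs and Casp8), where 7.12% of all genes were called higher and 9.96% lower. The interaction was called higher for 1 gene (Pidd1) and lower for 0, where 4.72% of all genes were called higher and 5.91% lower, and at an unadjusted p under 0.05 limma gave 4 higher and 0 lower, against 12.9% and 17.3% of all genes. No alternative called 1 lower. Without either Jak2WT GLUT1/3 WT clone, or without Jak2WT dKO clone 1, the interaction was called for few genes of the whole table, 2 to 27 higher and 3 to 41 lower in place of 558 and 698, so calls of members lost in those fits were lost along with nearly all others. For 4 of the 7 (Casp2, Apaf1, Casp9 and Diablo) the dKO clones lay below the GLUT1/3 WT clones in Jak2WT and above them in Jak2V617F cells without overlap, as they did for 5.87% of all genes tested. The interaction and the comparisons between backgrounds use the libraries of the dKO contrasts again, so counts from them are not separate evidence.

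The genes most like each member over the 8 libraries were found by Pearson's r of log2(FPKM + 1), among 9462 protein-coding genes. These r values describe libraries that share group and depth. Pidd1 ran closest to Traip (r = 0.990), a ubiquitin ligase of the replication machinery, Pole (0.986), the catalytic subunit of DNA polymerase epsilon, and Atad2 (0.983), and 225 genes reached an r of 0.9. Cycs ran closest to Tra2b (0.994), Tfdp1 (0.993) and Sptssa (0.991), with 293 genes at 0.9 or above. Casp8 ran closest to Ptpre (0.988), Notch2 (0.984) and Rgcc (0.982), and Casp2 to Anapc11 (0.977), Mrpl34 (0.962) and Smarcd2 (0.958). Apaf1 had only 8 such genes, led by Ythdc2 (0.990), Mgme1 (0.965) and Ankmy2 (0.937). Casp9 ran closest to Neurl4 (0.963), Psmd2 (0.954) and Apeh (0.951), and Diablo to Sec61a2 (0.985), Cenpc1 (0.984) and Taf2 (0.981). Over the same libraries the r of Pidd1 and Casp2 was 0.75.

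Other genes around the PIDDosome moved in both directions. Counts of called genes in these lists stand against 13.7% of all genes called higher and 16.2% lower with the dKO in Jak2V617F cells, 7.62% and 6.06% in Jak2WT cells, and 15.3% and 14.9% between backgrounds with intact transporters. Of 8 partners and substrates, all tested, 4 rose and 1 fell with the dKO in Jak2V617F cells, with a median of 0.21. Ankrd26, which anchors the PIDDosome at centrioles, rose by 0.67 (adjusted p = 0.0104), the Fanconi anemia gene Fanci by 0.66 (adjusted p = 0.00303), the spindle checkpoint kinase gene Bub1b by 0.42 (adjusted p = 0.0378) and Ikbkg by 0.33 (adjusted p = 0.0403). Npm1 fell by 0.52 (adjusted p = 0.00490). Mdm2, a caspase-2 substrate, had a value of 0.10 (adjusted p = 0.491) and Bid of -0.07 (adjusted p = 0.715). In Jak2WT cells 1 of the 8 passed, Bid at 0.51 (adjusted p = 0.0350). With intact transporters, Ankrd26 (-0.51), Fanci (-0.66) and Bub1b (-0.90) were lower in Jak2V617F cells, and Npm1 (0.63), Bid (0.55), Ripk1 (0.43) and Mdm2 (0.39) were higher.

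Among 14 tested apoptosome regulators, 2 were higher and 1 lower with the dKO in Jak2V617F cells, where 13.7% and 16.2% of all genes were. Birc5, which encodes survivin, rose by 0.80 (adjusted p = 0.00121), and its interaction was 0.93 (adjusted p = 0.0121). The chaperone gene Hspa8 rose by 0.75 (adjusted p = 0.00377), and Birc2 fell by 0.45 (adjusted p = 0.0234). In Jak2WT cells Hspa8 (0.98) and the caspase inhibitor gene Xiap (0.29, adjusted p = 0.0476) rose. Of 11 tested substrates of executioner caspases, 4 rose and 3 fell with the dKO in Jak2V617F cells. The nuclear lamina genes Lmnb1 and Lmna rose by 0.91 and 0.76, and Stk24 fell by 1.0, whereas limma called 0 of the 11 in either direction in Jak2WT cells, with 1 higher and 1 lower at an unadjusted p under 0.05.

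Casp1 and Casp4, which serve inflammatory cell death, rose with the dKO in Jak2WT cells, by 0.91 (adjusted p = 0.00755) and 0.96 (adjusted p = 0.0104). In Jak2V617F cells their fold changes were -0.31 (adjusted p = 0.0958) and 0.05 (adjusted p = 0.819). The interaction passed for Casp1 (-1.22, adjusted p = 0.0132) and Casp4 (-0.90, adjusted p = 0.0383).

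Of 10 genes of the death receptor complex, in which Casp8 acts, 3 fell with the dKO in Jak2V617F cells and 0 rose by limma, with 1 higher at an unadjusted p under 0.05. Of all genes 16.2% were lower and 13.7% higher there. The 3 were Tnfrsf1a (-0.63), Tnfaip3 (-0.85) and Fas (-0.64). In Jak2WT cells Tnfaip3 was lower (-0.91, adjusted p = 0.00861) and Fas was at 0.02 (adjusted p = 0.951). Between backgrounds with intact transporters, limma called 1 of the 10 higher and 1 lower. Cflar, the Casp8-like inhibitor gene, was lower in Jak2V617F than in Jak2WT cells with intact transporters (-0.27, adjusted p = 0.0473) and among dKO clones (-0.48, adjusted p = 0.0103). Fas was at 4.69 and 4.93 FPKM in Jak2V617F GLUT1/3 WT against 2.42 and 2.94 FPKM in Jak2WT GLUT1/3 WT clones. The adaptor gene Fadd did not pass (-0.44, adjusted p = 0.0557 with intact transporters).

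Upstream of cytochrome c release, 3 of 10 tested BCL2 family genes fell with the dKO in Jak2V617F cells and 0 rose by limma, also at an unadjusted p under 0.05. The survival genes Bcl2l2 and Mcl1 fell by 0.85 and 0.36, and Bbc3, which encodes the death-promoting PUMA, by 0.61. With intact transporters 5 were higher in Jak2V617F cells, among them Bax (1.01), Bcl2l11 (1.18) and Bcl2l1 (1.25), and 3 were lower, among them Bcl2 (-1.90). Pidd1 is named for its induction by p53. Of 10 tested p53 genes, Trp53 (0.68, adjusted p = 0.0232) and Gtse1 (0.52, adjusted p = 0.00909) rose with the dKO in Jak2V617F cells and 0 fell by limma (1 at an unadjusted p under 0.05), with a median of 0.06. Trp53 differed between the Jak2V617F dKO clones, at 30.1 FPKM in clone 1 and 46.1 in clone 3. Cdkn1a, the usual readout of p53, had a value of 0.02 (adjusted p = 0.894) with the dKO in Jak2V617F cells. In Jak2WT cells 3 of the 10 rose with the dKO and 0 fell by limma, against 7.62% and 6.06% of all genes. Their median there was 0.29. With intact transporters 6 of the 10 were higher in Jak2V617F cells, among them Zmat3 (1.39) and Ccng1 (1.38), and 0 lower by limma (2 at an unadjusted p under 0.05). Whether p53 had a part in the level of Pidd1 was not tested.

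**Figure D4:**
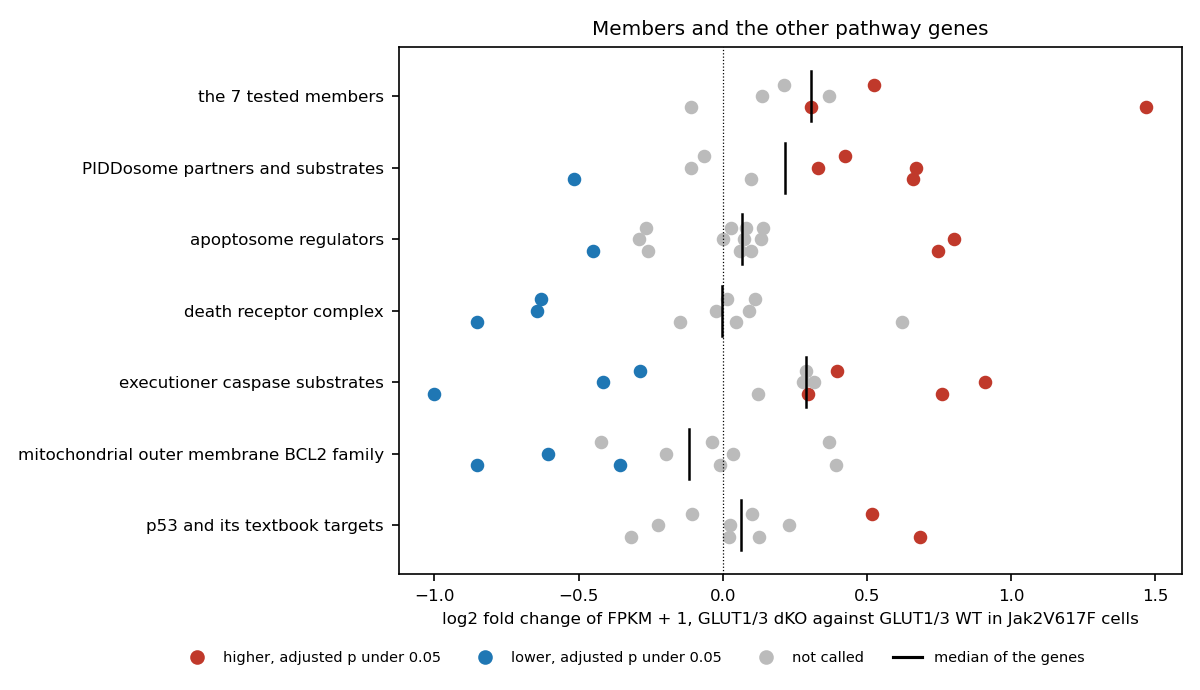
Log2 fold change of FPKM + 1 with the dKO in Jak2V617F cells for the 7 tested members (top) and the tested genes of 6 of the related lists (the other caspases are not shown), with a point per gene, red for higher and blue for lower at an adjusted p under 0.05, and a bar at each list's median. Pidd1, at 1.47, lies beyond every gene shown, and the medians of the lists shown run from -0.12 for the BCL2 family to 0.29 for the caspase substrates.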

How the data were processed

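The authors deposited FPKM values per gene and library, made from paired poly A reads that were cleaned with fastp 1.0.1, aligned to mm39 with HISAT2 2.2.1 and counted with featureCounts 2.0.6, as the submitters' processing notes name these tools. The annotation version, strand setting and library total are not given in the sources used here. FPKM times listed length gave whole reads for 100% of values above 0 (tolerance 0.01), from which reads and counting errors were computed. The counting errors cover counting alone.

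Genes that reached 1 FPKM in 2 or more libraries were tested with limma 3.58.1 (R 4.3.3) on log2(FPKM + 1), with 1 mean per group, an empirical Bayes trend and Benjamini-Hochberg adjustment over 11818 genes (4 residual and 3.34 prior degrees of freedom). An exact permutation test of 2 against 2 clones cannot go below a two-sided p of 0.333, so the p-values rest on the spread shared between genes. Members and lists were chosen with earlier results of these data known. Named were the members, the targeted genes, up to 6 genes per list with the smallest adjusted p in any comparison of 2 groups, and the 3 most alike patterns per member. Ikbkg, Mdm2, Mcl1, Trp53, Cdkn1a, Klf1 and the markers near 0 are named outside that rule and were chosen after their values were seen. Promoters and motifs were read with Python 3.11.15 and pandas 2.3.3 from RefSeq, on another build than the table. Alternatives covered the pseudocount, filter, scaling, a count-based fit (voom on recovered reads), the fit's options, a replicate block and leaving out each library. The code was tested on simulated data. Some genes of the lists are not reported here.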

Additional observations from a re-analysis of the deposited data

Results flagged for a closer look

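The effect of the dKO on Pidd1 differed between the backgrounds by 1.28 (interaction on the log2 scale, limma adjusted p = 0.0176), with separate clones in Jak2V617F cells, the dKO being higher, and overlapping clones in Jak2WT cells. For 4 further genes the dKO clones all lay below the GLUT1/3 WT clones in Jak2WT cells and all above them in Jak2V617F cells, as for 5.87% of all genes tested, and here the test of the difference did not pass: the interaction was 0.59 for Apaf1 (adjusted p = 0.123), 0.54 for Casp9 (adjusted p = 0.0570), 0.41 for Casp2 (adjusted p = 0.0642) and 0.27 for Diablo (adjusted p = 0.407).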

How the results depend on the processing

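Pidd1 and Cycs with the dKO in Jak2V617F cells, and Cycs between backgrounds with intact transporters, passed under all 18 alternatives, with adjusted p-values (limma) of 0.000224 to 0.0120, 0.000923 to 0.0422 and 0.000458 to 0.0409. Of the 7 tested genes, the dKO in Jak2V617F cells was called higher for 3, and for 5 by voom on recovered reads, 2 with only the groups compared and 2 to 3 without 1 library. The dKO in Jak2WT cells was called lower for 0, and for 1 with libraries scaled to the same summed FPKM and by voom. Between backgrounds with intact transporters 4 were lower, against 3 without the filter and with only the groups compared, 5 with the same summed FPKM and without the trend, 6 by voom and 1 to 4 without 1 library. Among dKO clones 1 was higher, against 0 without the filter, without the trend and with only the groups compared, 2 with the same summed FPKM, 3 by voom and 0 to 1 without 1 library; and 2 were lower, against 1 without the filter or the trend, 0 with only the groups compared and 0 to 2 without 1 library. The interaction was higher for 1, against 0 without the filter, 3 under either scaling, 4 by voom and 0 to 2 without 1 library. Signs changed for Apaf1 between backgrounds with intact transporters (0.01, against -0.13 with the same summed FPKM, -0.10 by voom and -0.021 to 0.046 without 1 library, the lowest without Jak2V617F GLUT1/3 WT clone 3), for the Casp8 interaction (-0.09, against 0.10 with the same summed FPKM and 0.058 by voom) and for Pidd1 with the dKO in Jak2WT cells (0.19, against -0.028 to 0.40 without 1 library, the lowest without Jak2WT dKO clone 3). The all-gene median moved by a like amount for Apaf1 and Casp8 under those scalings. The Casp8 interaction stayed below that median in each of these fits, and Apaf1 stayed close to it. Over all values of single genes, 543 kept direction and side of the threshold, 52 lost the call, 22 gained it and 6 changed sign. The cause was not tested.

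Clone numbers were shared between groups but mark separate single-cell clones, so they were not used as a pairing. Deviations of same-numbered clones correlated at -0.25 to 0.15, which cannot tell whether such clones shared a batch. With the clone number as a replicate block, the genes lower among dKO clones were 1 in place of 2, Cycs being lost (adjusted p = 0.0571), and no other count moved by over 1.5 times. Scaling to the same summed FPKM shifted the median of all genes between backgrounds with intact transporters from 0.01 to -0.12 and that of the interaction from -0.04 to 0.12. The share of calls that were higher went from 50.7% to 29.4% and from 44.4% to 75%, and for the dKO from 55.7% to 33.9% in Jak2WT and from 45.7% to 60.2% in Jak2V617F cells. By voom these medians went to -0.10 and 0.11, with 34.4% and 69.9% of calls higher, so calls gained by voom or with the same summed FPKM went with a shift of all genes. Without 1 library, calls over all genes were 2 to 502 higher and 3 to 754 lower for the interaction (558 and 698 with all 8), 74 to 1077 and 36 to 897 for the dKO in Jak2WT cells (901 and 716), 1079 to 1358 and 1017 to 1684 in Jak2V617F cells (1614 and 1919), 802 to 2025 and 746 to 1944 between backgrounds with intact transporters (1812 and 1765), and 272 to 804 and 348 to 1220 among dKO clones (842 and 1177). Depth limits Cradd and Diablo most, which had as few as 50 and 97 reads in a library.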

Other observations

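Jak2 was at 218 to 258 FPKM in the Jak2WT and 139 to 165 FPKM in the Jak2V617F libraries, and reads of the introduced and the resident gene cannot be told apart there.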
